A study of Mus musculus with 8 samples.

Results

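Leukocyte integrins, the paired alpha and beta chains with which blood cells hold on to other cells and to matrix, were read in multipotent progenitors of the mouse. The 10 genes were Itga4, Itga5, Itga6, Itgal, Itgam, Itgax, Itgb1, Itgb2, Itgb3 and Itgb7, chosen as integrin chains of blood cells and not by a threshold on their values, though with earlier results of these data known. Every probe set that the platform annotation gives to exactly 1 of them was taken, which made 25 probe sets of 34945 with a single gene, and 10 genes of 18193. The cells came from bone marrow of female C57BL6 mice of 8 to 10 weeks, either wild type (WT) or FLT3-ITD, that is, with an internal tandem duplication in FLT3, a receptor of the tyrosine kinase class that early blood cells carry. They were sorted as lympho-myeloid multipotent progenitors, with no lineage markers and no CD150 but with Sca-1, c-Kit and CD48. Each genotype had 4 samples, 1 array each, numbered 1, 2, 3 and, for the last, 1 with the tag 037 (called replicate 037). The sources used here do not give whether the duplication is on 1 or both alleles, how many mice gave a sample, or what 037 stands for. The p-values therefore reflect no more than the spread among these 8 samples, possibly technical in origin.

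An integrin is a heterodimer, and its alpha chain largely sets the ligand. Alpha 4 with beta 1 (VLA-4) binds VCAM-1 and fibronectin and helps to keep progenitors in the marrow, alpha 4 with beta 7 binds MAdCAM-1 and guides cells to the gut, and beta 2 joins the alpha chains of LFA-1, Mac-1 and CD11c/CD18 on leukocytes. Inside-out signals through talin, kindlin and the small GTPase Rap1 switch these receptors from a resting to a binding state, which a transcript level does not show.

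No leukocyte integrin gene passed the test in either direction. Values are log2 RMA expression values, differences are FLT3-ITD minus WT on that scale with the standard error (SE) from limma, and the threshold was an adjusted p of 0.05 over all genes tested. A gene was read from its probe set with the highest mean and tested if the value exceeded the median of its array on 4 arrays or more. Of the 10 genes, 8 were tested, and Itgam and Itgax were too dim. By limma 0 of the 8 passed, where 0.604% of 10763 genes did (0.427% higher and 0.177% lower in FLT3-ITD). At an unadjusted p under 0.05, 3 of the 8 read higher in FLT3-ITD (Itgb7, Itgb2 and Itgb3) and 0 lower, beside 5.74% and 3.84% of tested genes. Itgb3 lay below the array median on WT replicates 1 and 3 and needed its FLT3-ITD arrays, where it is higher, to meet the filter. Without the filter again 0 of 10 passed, where 0.374% of 18193 genes did. At an unadjusted p under 0.05 that fit added Itgax and Itga4, for 5 of the 10 higher and 0 lower, beside 5.05% and 3.28% of all genes. The median difference over the 10 genes was 0.28, beside 0.03 over all genes. Groups that did not overlap were found for 2 of the 10, Itgax and Itgb2, both higher in FLT3-ITD, a pattern that 3.41% of all genes had. These are bulk samples, so a change in the share of cells that carry a transcript and a change in its amount per cell cannot be told apart.

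**Figure D1:**
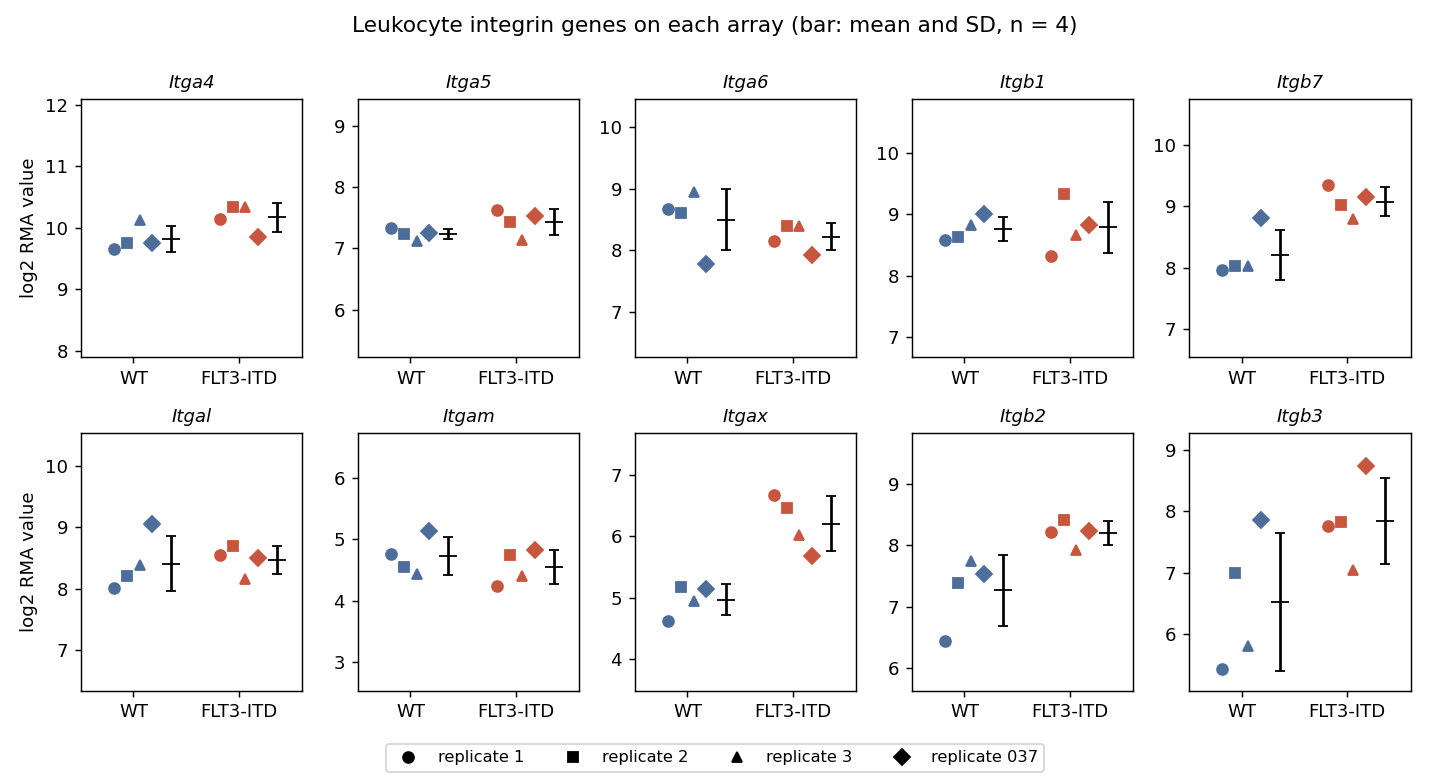
The log2 RMA value of each of the 10 genes on each array (vertical axis, the same span of 4.2 log2 units in every panel), with WT in blue and FLT3-ITD in red, symbols for the replicates, and the mean and SD (n = 4) as a black bar. Itgax and Itgb2 are the panels where all FLT3-ITD points lie above all WT points, and WT replicate 037 stands above the other WT points for Itgb7.

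Among the chains of the beta 2 family, Itgax had the smallest p of the 10 genes. It encodes alpha X (CD11c), known best from dendritic cells. Its single probe set read 4.63, 5.17, 4.95 and 5.14 in WT replicates 1, 2, 3 and 037, and 6.68, 6.46, 6.02 and 5.68 in FLT3-ITD. All WT values lay below the array medians of 5.98 to 6.05, and 2 of the FLT3-ITD values lay above. The difference was 1.24 ± 0.23 (SE, n = 4 each; 95% interval 0.71 to 1.76), a fold of 2.36 that starts from a dim level. In the limma fit without the filter its adjusted p was 0.0950, short of the threshold. Without FLT3-ITD replicate 037, the lowest of its group, the difference was 1.41 and passed (limma adjusted p = 0.0439), while the removal of any other single array left it between 1.08 and 1.30 and short of the threshold.

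Itgb2 encodes beta 2 (CD18), the partner that Itgal, Itgam and Itgax share. It read 6.44, 7.38, 7.74 and 7.53 in WT and 8.22, 8.42, 7.93 and 8.24 in FLT3-ITD. The FLT3-ITD values were close together and above all WT values, of which replicate 1 was well below the other 3. The difference was 0.93 ± 0.27 (SE, n = 4 each; 95% interval 0.32 to 1.54; limma adjusted p = 0.271). Without WT replicate 1 it was 0.65, with a limma adjusted p of 0.245.

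Itgal encodes alpha L (CD11a), which with beta 2 forms LFA-1, the receptor for ICAM-1. It read 8.01, 8.20, 8.38 and 9.05 in WT and 8.55, 8.69, 8.15 and 8.5 in FLT3-ITD. The groups overlapped throughout, and WT replicate 037 was the highest of the 8. The difference was 0.07 ± 0.23 (95% interval −0.46 to 0.59; limma adjusted p = 0.957), which still holds a change of about 0.5 in either direction. Its second probe set, 1425367_at, read 0.16 ± 0.22 higher in FLT3-ITD and did not pass.

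Itgam encodes alpha M (CD11b), which with beta 2 forms the complement receptor Mac-1 of granulocytes and monocytes. It read 4.76, 4.55, 4.44 and 5.14 in WT and 4.24, 4.74, 4.40 and 4.82 in FLT3-ITD. Every value lay below the array median, so only dim signal was seen in either genotype. The difference was −0.17 ± 0.19 (95% interval −0.60 to 0.26; limma adjusted p = 0.860 without the filter). Removal of single arrays moved it from −0.26 (without WT replicate 3, and also without FLT3-ITD replicate 037) to −0.03 (without WT replicate 037), and without FLT3-ITD replicate 1 it was −0.07. Antibodies to CD11b are common in lineage cocktails, but the labels do not list the antibodies used here.

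Itgam and Itgax lie side by side on chromosome 7, with 11034 bases between the end of the first and the start of the second in GRCm38.p6. The 250 bases before the start that the RefSeq promoter table gives each gene are shown for this pair, in the direction of the gene, with sequence from RefSeq (GRCm38.p6), for Itgam at chr7:128062390-128062639 on the + strand and for Itgax at chr7:128129300-128129549 on the + strand. That table's start of Itgax lies inside the gene locus used for the gap, so that the last 24 bases of its window belong to the locus. Capitals mark GAGGAA read on either strand (TTCCTC on the other), letters found in binding sites of the myeloid factor PU.1.
Itgam: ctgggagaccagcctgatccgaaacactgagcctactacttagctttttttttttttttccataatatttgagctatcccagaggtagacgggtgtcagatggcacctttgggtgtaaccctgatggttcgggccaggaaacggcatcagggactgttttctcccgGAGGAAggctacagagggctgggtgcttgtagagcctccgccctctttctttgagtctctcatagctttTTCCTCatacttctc
Itgax: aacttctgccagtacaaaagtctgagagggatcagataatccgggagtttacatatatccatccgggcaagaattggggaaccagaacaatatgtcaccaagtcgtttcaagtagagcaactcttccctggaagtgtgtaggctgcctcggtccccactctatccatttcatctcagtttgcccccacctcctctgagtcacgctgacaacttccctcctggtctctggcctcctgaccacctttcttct
The Itgam window held the letters at 2 places, beginning 84 and 15 bases before the start, and the Itgax window at 0 places. Of 32851 windows of 250 bases, 23.3% held them at least once. The STAT-type letters TTCNNNGAA, which read the same on both strands, were in neither window and in 7.02% of all windows. The 2 motifs share no overlapping match here. Promoters of 6 of the 10 genes were in the table, and those of Itga4 and Itgb7 held neither motif, whereas Itga5 and Itgb1 each held GAGGAA at 1 place. The Itgb7 window, chr15:102231936-102232185 on the minus strand, lies wholly inside the gene locus of 102215994 to 102233405. A match is a description of letters and not of a bound site, and a window without one says only that these letters are not in it.

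The chains that serve VLA-4 and the gut homing receptor came next. Itgb7 encodes beta 7, a partner of alpha 4 and of alpha E. It read 7.96, 8.03, 8.03 and 8.81 in WT and 9.35, 9.02, 8.80 and 9.15 in FLT3-ITD. Of the WT values 3 lay within 0.1 of each other and far below FLT3-ITD, and WT replicate 037 reached the lowest FLT3-ITD value. The difference was 0.88 ± 0.22 (SE, n = 4 each; 95% interval 0.39 to 1.36), a fold of 1.84, with a limma adjusted p of 0.164. Without WT replicate 037 it was 1.08 and passed (limma adjusted p = 0.0422). This was the only leukocyte integrin gene called in any of the fits with the filter. Without both replicates 037 it was 1.05 (limma adjusted p = 0.106).

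Itga4 encodes alpha 4, the shared partner of beta 1 and beta 7. Its brightest probe set read 9.65, 9.75, 10.13 and 9.75 in WT and 10.14, 10.34, 10.34 and 9.86 in FLT3-ITD, and the groups overlapped through WT replicate 3 and FLT3-ITD replicate 037. The difference was 0.35 ± 0.16 (95% interval −0.02 to 0.72; limma adjusted p = 0.552). Its unadjusted limma p was 0.0597 with the filter and 0.0493 without it. All 5 probe sets had positive differences, from 0.10 to 0.70. The highest came from 1436037_at, which read 8.64, 8.75, 8.63 and 8.85 in WT and 9.35, 9.15, 9.61 and 9.57 in FLT3-ITD, without overlap. Its difference was 0.70 ± 0.15 (limma adjusted p = 0.116 over 19211 probe sets), also short of the threshold. The probe sets of Itga4 thus gave sizes that differ, and the sources used here do not say which transcripts each one reads.

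Itgb1 encodes beta 1, the partner of alpha 4, alpha 5 and alpha 6 and of most other matrix receptors. It read 8.59, 8.63, 8.82 and 9.0 in WT and 8.33, 9.34, 8.67 and 8.83 in FLT3-ITD, so the WT range lay inside that of FLT3-ITD. The difference was 0.03 ± 0.21 (95% interval −0.45 to 0.52; limma adjusted p = 0.978). Of its 6 probe sets 3 passed the filter, with differences of 0.03, 0.08 and −0.06. The dim ones read lower in FLT3-ITD, with 1426919_at at −0.67 ± 0.33, 1426920_x_at at −0.36 ± 0.15 and 1438119_at at −0.01 ± 0.10, none past the test. The mean over all 6 therefore had the opposite sign, −0.17 (limma adjusted p = 0.775).

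Itga5 encodes alpha 5, which with beta 1 forms the fibronectin receptor VLA-5. It read 7.33, 7.23, 7.13 and 7.25 in WT and 7.63, 7.43, 7.14 and 7.53 in FLT3-ITD. The difference was 0.20 ± 0.14 (95% interval −0.11 to 0.51; limma adjusted p = 0.722), and the groups overlapped through FLT3-ITD replicate 3. The remaining 3 probe sets were dim and gave differences of 0.00 to 0.16.

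Itga6 encodes alpha 6, a laminin receptor chain that pairs with beta 1 or beta 4. It read 8.67, 8.60, 8.95 and 7.78 in WT and 8.16, 8.40, 8.39 and 7.92 in FLT3-ITD. Replicate 037 was the lowest array of each genotype, and among the other arrays all FLT3-ITD values lay below all WT values. The difference was −0.28 ± 0.25 (95% interval −0.84 to 0.28; limma adjusted p = 0.780), and removal of single arrays moved it from −0.13 without WT replicate 3 and −0.18 without FLT3-ITD replicate 037 to −0.52 without WT replicate 037. Without both replicates 037, an alternative chosen after the data were seen, it was −0.42 (limma adjusted p = 0.512). The second probe set, 1422445_at, differed by −0.26 ± 0.23, but there replicate 037 was the highest FLT3-ITD array.

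Itgb3 encodes beta 3, which joins alpha IIb on platelets and alpha V on many other cells. It had the widest difference of the 10 genes and the widest spread. It read 5.43, 6.99, 5.80 and 7.86 in WT and 7.76, 7.82, 7.04 and 8.74 in FLT3-ITD. Replicate 037 was the highest array of each genotype, and the WT values covered more than 2 log2 units. WT replicates 1 and 3 lay below the array medians of 5.98 to 6.05, and the FLT3-ITD arrays alone met the filter. The difference was 1.32 ± 0.55 (SE, n = 4 each; 95% interval 0.07 to 2.56; limma adjusted p = 0.5). The second probe set, 1421511_at, read 5.31 to 5.62 in WT and 5.65 to 6.34 in FLT3-ITD, without overlap but mostly below the array medians, with a difference of 0.37 ± 0.17. As the mean over both probe sets the difference was 0.84 (limma adjusted p = 0.269).

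Over all 25 probe sets, 16 passed the filter and 0 of those passed the test over 19211 probe sets, where 0.416% did. In the fit of all 34945 probe sets 0 of 25 passed, where 0.157% did. At an unadjusted p under 0.05 that fit gave 6 higher and 1 lower among the 25, beside 4.48% and 3.55% of all probe sets. Groups without overlap were found for 4 of the 25, all higher in FLT3-ITD, a pattern that 3.07% of all probe sets had. Probe sets of 1 gene share their transcript and are not replicates, and those with _x or _s in their name can also read related transcripts.

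**Figure D2:**
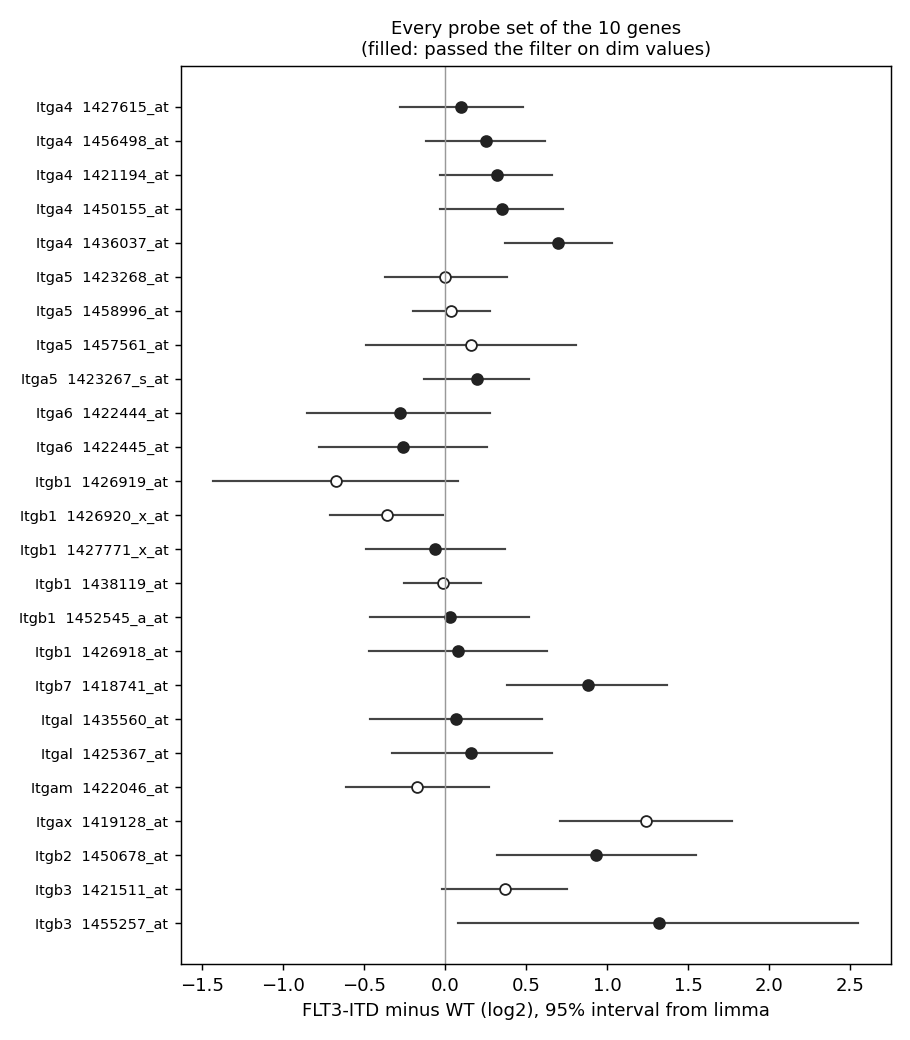
The difference FLT3-ITD minus WT (log2, horizontal axis) of each of the 25 probe sets with its 95% interval from limma, grouped by gene, with filled points for the 16 that passed the filter on dim values. The 5 probe sets of Itga4 all lie above 0, and those of Itgb1 spread from −0.67 to 0.08.

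Whether chains that share a partner changed unequally was tested on 7 pairs through the difference of 2 chains within each array, which says nothing of the level of one against the other. The smallest p that 4 arrays against 4 allow in an exact permutation test is 0.0286, and 2 pairs reached it. After adjustment over the 7 pairs 0 passed, but a pair could pass only if at least 5 of the 7 reached that smallest p, so this count says little. Itgam minus Itgax read −0.62 to 0.14 in WT and −2.44 to −0.85 in FLT3-ITD, without overlap. The change was −1.41 ± 0.37 (SE; exact permutation two-sided p = 0.0286, adjusted 0.100). Itgam lay below the array median on all 8 arrays and Itgax on all WT arrays, so this value largely restates the Itgax difference and does not show unequal change of 2 measured chains. Itgal minus Itgax read 3.02 to 3.91 in WT and 1.87 to 2.83 in FLT3-ITD, also without overlap, a change of −1.17 ± 0.27 (exact permutation p = 0.0286, adjusted 0.100), again with Itgax dim in WT.

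Itgb7 minus Itgb1, the alternative partners of alpha 4, went from −0.55 ± 0.26 in WT to 0.29 ± 0.56 in FLT3-ITD (SD, n = 4 each). The change was 0.84 ± 0.31, with FLT3-ITD replicate 2 inside the WT range (exact permutation p = 0.0571, adjusted 0.133). Among the partners of beta 1, Itga4 minus Itga6 changed by 0.63 ± 0.22 (exact permutation p = 0.114, adjusted 0.200) and Itga5 minus Itga6 by 0.48 ± 0.33 (exact permutation p = 0.143, adjusted 0.200). The 4 FLT3-ITD values of Itga4 minus Itga6 lay between 1.93 and 1.98, and WT replicate 037 was level with them at 1.97. Itga4 minus Itga5 changed by 0.15 ± 0.24 (exact permutation p = 0.571) and Itgal minus Itgam by 0.24 ± 0.21 (exact permutation p = 0.314).

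**Figure D3:**
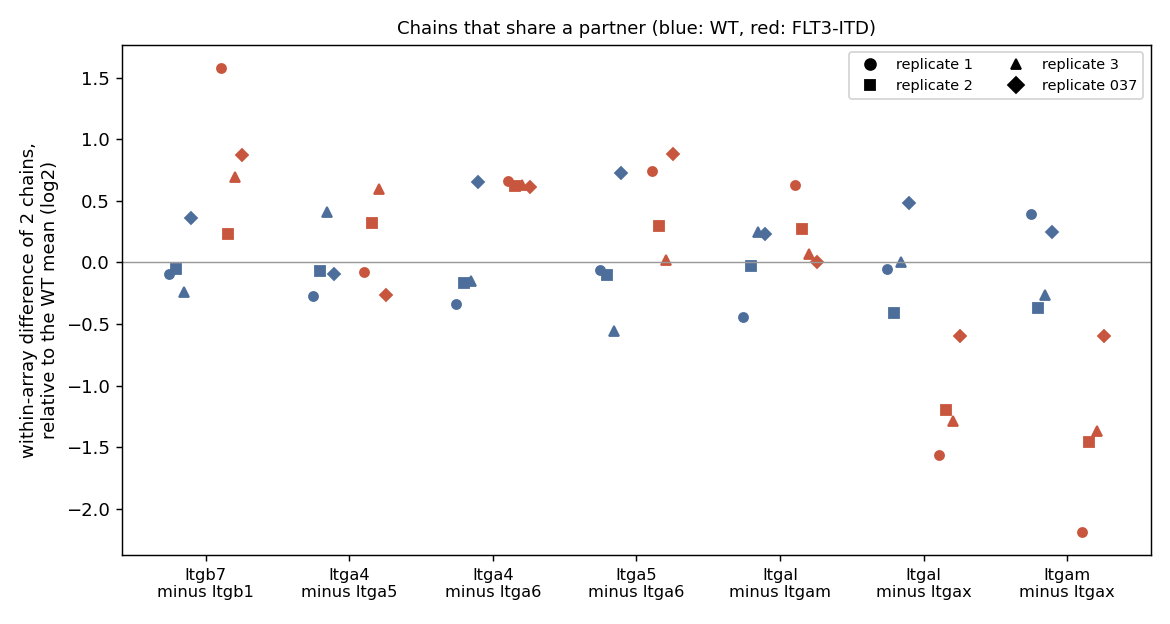
The log2 difference of 2 chains within each array, drawn relative to the WT mean of the pair (vertical axis), for the 7 pairs that share a partner, with WT in blue, FLT3-ITD in red and symbols for the replicates. In both pairs with Itgax all FLT3-ITD points lie below all WT points.

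The wider pathway was read from 5 lists with 129 genes. Of these, 117 were found under their symbol with a probe set of exactly 1 gene, and 87 passed the filter. By limma 0 of the 87 passed over all genes, 5 read higher and 4 lower at an unadjusted p under 0.05 (beside 5.74% and 3.84% of all tested genes), and their median difference was 0.03, beside 0.02 over all tested genes. Of 8 tested integrin chains outside the 10, 0 passed. The smallest p among them went to Itgav, alpha V, at 0.51 ± 0.27 (limma adjusted p = 0.614) and Itga9 at −0.22 ± 0.15. Itga2b, the platelet partner of beta 3, read −0.18 ± 0.14. The 7 chains too dim for the filter lay below the median on every array. Of these, 2 singled out after their values were seen did not overlap between genotypes. Both were higher in FLT3-ITD, a pattern that 3.41% of all genes had. Itga8, a partner of beta 1, read 2.58 to 2.83 in WT and 5.90, 3.88, 3.26 and 5.48 in FLT3-ITD, a difference of 1.93 ± 0.53 (limma adjusted p = 0.303 without the filter). Itgae, alpha E, the other partner of beta 7, read 4.93 to 5.08 in WT and 5.11 to 5.93 in FLT3-ITD, a difference of 0.44 ± 0.17 (limma adjusted p = 0.529 without the filter).

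Of 10 tested ligands and counter-receptors 0 passed. Vcam1, the endothelial and stromal ligand of VLA-4, read 6.78, 6.19, 6.57 and 6.67 in WT and 6.25, 4.94, 5.76 and 5.81 in FLT3-ITD, with overlap only through FLT3-ITD replicate 1. The difference was −0.87 ± 0.27 (limma adjusted p = 0.317). FLT3-ITD replicates 2, 3 and 037 of Vcam1 lay below the array medians of 5.98 to 6.05, and its WT arrays alone met the filter. Thy1, a ligand of beta 2 and beta 3 integrins on other cells, differed by 0.97 ± 0.50 (limma adjusted p = 0.607), and WT replicate 037, at 5.21, was far below the others.

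Among 30 tested activation and adaptor genes 0 passed. Sharpin, an inhibitor of integrin activation, read 0.44 ± 0.16 higher and Rap1gap2, which turns Rap1 off, 0.41 ± 0.14, both without overlap between genotypes (limma adjusted p = 0.420 and 0.361). Rap1gap2 was dim in WT, at 5.56 to 5.98, and met the filter through its FLT3-ITD arrays, at 6.03 to 6.32. At an unadjusted p under 0.05 by limma 3 of the 30 were higher and 1 lower, beside 5.74% and 3.84% of all tested genes. Besides Sharpin and Rap1gap2, the higher one was Itgb1bp1 at 0.62 ± 0.27. The lower one was Dok1 at −0.36 ± 0.16, without overlap. The core activators gave Tln1 (talin) at −0.34 ± 0.22, Fermt3 (kindlin-3) at −0.14 ± 0.21, Rap1a at 0.13 ± 0.14 and Rap1b at −0.32 ± 0.16, none past the test; these 4 were chosen for their role after their values were seen.

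Among 23 tested kinases and exchange factors 0 passed. Ptk2b, the kinase PYK2 of leukocyte adhesion, read 8.85 to 9.03 in WT and 7.20, 7.93, 8.63 and 8.68 in FLT3-ITD, a difference of −0.82 ± 0.30 without overlap (limma adjusted p = 0.439). Pik3cg, a phosphoinositide kinase of leukocytes, read 0.48 ± 0.21. Of 16 tested homing and adhesion receptors outside the integrins 0 passed. Selplg, which encodes the selectin ligand PSGL-1, came nearest, at 8.26, 8.55, 8.72 and 8.93 in WT and 9.65, 9.44, 9.15 and 9.23 in FLT3-ITD. Its difference was 0.75 ± 0.18 without overlap (limma adjusted p = 0.150). The tetraspanin gene Cd81 read −0.36 ± 0.16 (limma adjusted p = 0.519).

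**Figure D4:**
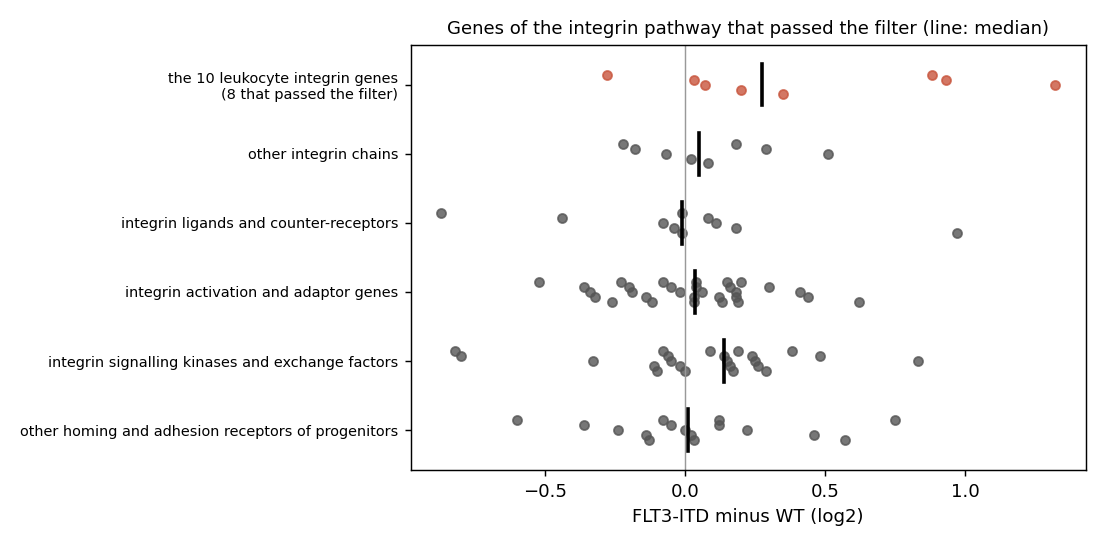
The difference FLT3-ITD minus WT (log2, horizontal axis) of each gene that passed the filter, for the leukocyte integrins (red) and the 5 lists of other pathway genes (grey), 1 point per gene and a black line at the median. Itgb3, Itgb2 and Itgb7 lie at 0.88 to 1.32, and the medians of the other lists lie between −0.01 and 0.14.

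Among the markers of the gate and of progenitors, Kit, Cd34 and Ptprc (CD45) read 8.77 or more on every array. Slamf1 (CD150) lay below the array median on all 8 arrays, and Ly6a (Sca-1) was not analysed here. Kit differed by −0.47 ± 0.17 with overlap (limma adjusted p = 0.427), Cd34 by −0.08 ± 0.12 and Ptprc by 0.00 ± 0.16. Cd48 rose in FLT3-ITD by 1.06 ± 0.13 (limma adjusted p = 0.00740). The difference of Flt3 itself was −1.17 ± 0.20, so that Flt3 fell (limma adjusted p = 0.0406).

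Several integrin chains are also markers of mature cells, so lists of other cell types were read on the same arrays. Dendritic cell markers averaged 6.69 to 6.88 in WT and 8.07 to 8.94 in FLT3-ITD over 17 genes (Itgax not among them), without overlap. Of 14 tested 7 rose and 1, Flt3, fell, beside 0.427% and 0.177% of all tested genes. Of the 7, Id2 and Naaa lay below the array median on all WT arrays. They met the filter through their FLT3-ITD arrays, where they are high, so the filter favours their count as risen. Among the FLT3-ITD arrays the average of the dendritic cell markers was lowest in replicate 037 and highest in replicate 1. Itgax had the same lowest and highest array. Itgb7 was also highest in replicate 1, and Itgb2 was highest in replicate 2. Both Itgb7 and Itgb2 were lowest in replicate 3, with replicate 037 second highest. The part of dendritic cells in the Itgax, Itgb2 and Itgb7 values was not tested. Of that list Cd209a lay below the array median on all 8 arrays.

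Monocyte and macrophage markers averaged 5.90 to 6.23 in WT and 6.14 to 6.58 in FLT3-ITD over 12 genes. Of 4 tested 1, Ccr2, rose, beside 0.427% of all tested genes. Ccr2 lay below the array median on most WT arrays, and its FLT3-ITD arrays alone met the filter. Cx3cr1, Adgre1, Ms4a7 and Mrc1 lay below the median on all arrays. Neutrophil markers, cells that carry much Itgam, averaged 6.37 to 7.60 in WT and 5.43 to 7.16 in FLT3-ITD, with 0 of 6 tested past the test. At an unadjusted p under 0.05 by limma 3 of the 6 were lower, beside 3.84% of all tested genes. Megakaryocyte and platelet markers, which go with beta 3, averaged 5.20 to 5.58 in WT and 5.28 to 5.32 in FLT3-ITD over 10 genes, with 0 of 3 tested past the test and 0 at an unadjusted p under 0.05 by limma; this list shares Itga2b with the integrin chains above, and Ppbp, Gp6, Vwf and Tubb1 lay below the median on all arrays. Averages for mast cell, T and NK cell and B cell markers overlapped between the genotypes, with 0 called genes. At an unadjusted p under 0.05 by limma, 1 of 4 tested mast cell markers was lower, beside 3.84% of all tested genes. Of 6 tested B cell markers 1 was higher, beside 5.74%. Erythroid markers averaged 7.06 to 7.28 in WT and 6.36 to 6.78 in FLT3-ITD. Of 6 tested 2, Hbb-b2 and Slc4a1, fell, beside 0.177% of all tested genes. Slc4a1 lay below the array median on all FLT3-ITD arrays and met the filter through its WT arrays. The part of any of these cells in the integrin values was not tested.

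Across the 10755 other tested genes, 5 had the 8-array pattern nearest to that of Itgax, each gene centred on its own mean and compared by root mean square distance. These were Ppt1 (distance 0.210 log2 units), a lysosomal thioesterase, Cd86 (0.240), a costimulatory ligand of antigen-presenting cells, Plin2 (0.240), a coat protein of lipid droplets, Cst3 (0.242), the protease inhibitor cystatin C, and Anxa3 (0.243). Being chosen for likeness to Itgax, they had to be higher in FLT3-ITD, so their differences are a description. These were 1.54 ± 0.20 for Cst3, 1.37 ± 0.26 for Cd86, 1.15 ± 0.25 for Anxa3, 1.10 ± 0.24 for Ppt1 and 0.89 ± 0.22 for Plin2.

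The tag 037 went with several of these values, so each gene was also read apart for these arrays. Between both 037 arrays, FLT3-ITD minus WT was 0.54 for Itgax, 0.34 for Itgb7, 0.71 for Itgb2 and 0.88 for Itgb3, and between the means of the other arrays it was 1.47, 1.05, 1.01 and 1.46. The signs were the same in both, whereas they were opposite for Itga6 (0.14 and −0.42), Itgal (−0.55 and 0.27) and Itgb1 (−0.17 and 0.10). With the tag as a covariate none passed; the limma adjusted p was 0.116 for Itgax, 0.12 for Itgb7, 0.304 for Itgb2 and 0.238 for Itgb3. FLT3-ITD replicate 1 stood apart over all probe sets (its correlations to the others were 0.948 to 0.959) and was the highest array for Itgax and Itgb7. Without it the differences were 1.08 and 0.79.

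**Figure D5:**
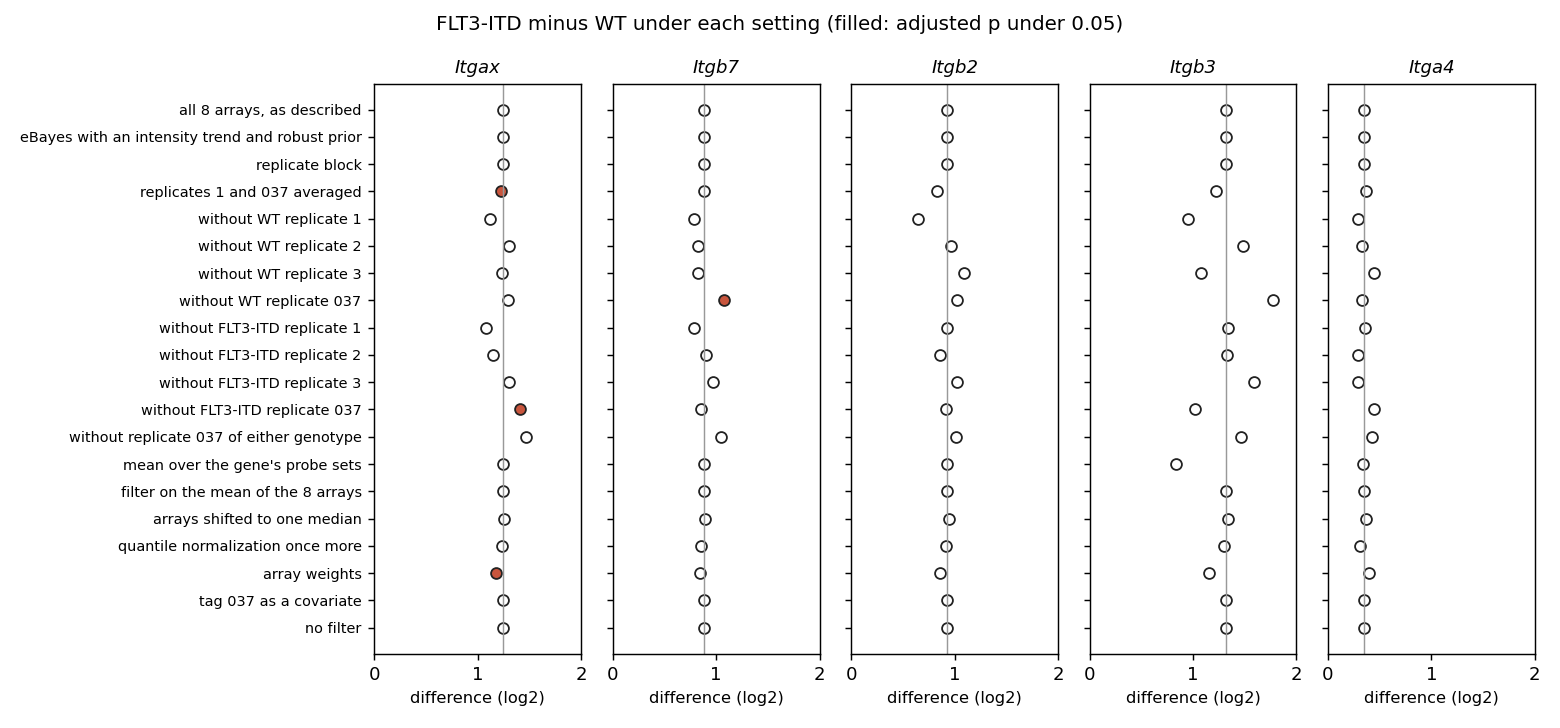
The difference FLT3-ITD minus WT (log2, horizontal axes) of the 5 genes with an unadjusted p under 0.05 in the fit without the filter, under each alternative setting (rows), with a grey line at the value from all 8 arrays and red fill where the adjusted p was under 0.05. Itgax is filled under 3 settings and Itgb7 under 1, and every point lies above 0.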

How the data were processed

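Per the labels' protocols, RNA of 8 samples was isolated in Trizol and passed through NuGEN WT-Ovation Pico amplification and biotin labelling. The authors deposited 1 log2 value per probe set and array, made with RMA (background correction, normalization of the arrays to one distribution, summary of probes), per the submitters' processing notes (version: not given in the sources used here). RMA understates large folds at low signal, and the number of arrays limits the precision.

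Of 45101 probe sets 64 were controls, 932 had several genes, none of them a member, and 9160 had no gene in the platform annotation of 2016. Symbols were updated through the Entrez ID where assembly GRCm38.p6 held it (34741 probe sets). FLT3-ITD and WT were compared with limma 3.58.1 in R 4.3.3, with no covariate and Benjamini-Hochberg adjustment over all genes or probe sets tested. Genes outside the filter on dim values take their values from the same fit without the filter. Chain pairs were tested by exact permutation, two-sided (scipy 1.17.1), and figures drawn with matplotlib 3.10.9. The procedure was tested on simulated data of 10763 genes, of which 200 were changed. It recovered 16% of genes changed by 0.5 log2 units, 66% at 1, 84% at 2 and 100% at 3. There were 11 false calls. Most changes of 0.5 were thus missed, so a gene short of the threshold may still differ between the genotypes.

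Named were the 10 members, of each pathway list up to 4 called genes or else the 2 of smallest p, called cell type markers, the markers of the gate, and the 5 patterns nearest to the member of smallest p. The members and lists were chosen with earlier results of these data known. Same-numbered arrays of both genotypes deviated together with correlations of 0.027 to 0.110, so the numbers were not taken to pair the samples. All replicates but 2 still matched their own number best, so a weak pairing remains possible. Alternatives covered normalization, filter, probe set choice, variance model, the tag 037 and the removal of single arrays. Probe sequences and scanner signal were not used here.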

Additional observations from a re-analysis of the deposited data

Results flagged for a closer look

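In 50 groups of 4 values (25 probe sets in 2 genotypes), 4 held a value set well apart from the remaining 3, which chance alone does in about 1 of 20 groups. WT replicate 037 was highest for Itgb7 (1418741_at) at 8.81, with the others at 7.96 to 8.03. For Itgb1 (1426918_at) the lowest arrays were WT replicate 1 at 8.00, with the others at 8.63 to 8.74, and FLT3-ITD replicate 037 at 7.96, with the others at 8.78 to 8.81. FLT3-ITD replicate 3 was highest for the dim probe set of Itgb3 (1421511_at) at 6.34, with the others at 5.65 to 5.72.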

How the results depend on the processing

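The count of leukocyte integrin genes past the test stayed at 0 in both directions under every alternative except without WT replicate 037, where 1, Itgb7, was higher; over the removal of arrays the range was 0 to 1 higher and 0 lower. The counts of leukocyte integrin probe sets and of listed pathway genes past the test stayed at 0 under every alternative run. Outside the filter, Itgax passed with replicates 1 and 037 averaged (1.22, limma adjusted p = 0.0335), with array weights (1.18, 0.0477) and without FLT3-ITD replicate 037 (1.41, 0.0439), and its adjusted p otherwise reached 0.264. Differences of Itgax, Itgb7, Itgb2, Itgb3 and Itga4 stayed positive, and those of Itga6 and Itgam negative, in all 19 alternatives. Signs turned where differences were near 0: Itgb1 was −0.17 as the mean over its probe sets, and on removing arrays Itgb1 ran from −0.15 to 0.19 (the same for 1452545_a_at), its 1426918_at from −0.09 to 0.29, 1427771_x_at from −0.21 to 0.08 and 1438119_at from −0.04 to 0.04, Itgal (1435560_at) from −0.07 to 0.28, Itga5 1457561_at from −0.11 to 0.31 and Itga5 1423268_at from −0.11 to 0.11. For chain pairs 0 passed under any alternative; with 1 array left out the smallest exact permutation p is 0.0571, so those fits cannot pass. With the replicate number as a replicate block 0 members passed, with Itgax at 1.24 (limma adjusted p = 0.259) and Itgb3 at 1.32 (0.225). The SE was 0.25 for Itgax and 0.28 for Itgb3, against 0.23 and 0.55 without the block. Over all genes 19 rose and 3 fell, against 46 and 19. In both genotypes replicates 1, 3 and 037 matched their own number best, and replicate 2 best matched replicate 3 of the other genotype. The cause of these shifts was not tested. Signal over background was not used here; Itgam lay below the array median on all 8 arrays and Itgax on all WT arrays.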
